A study of Schizosaccharomyces pombe
Saccharomyces cerevisiae with 8 samples.

Results

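Newly synthesized RNA was set against total RNA in yeast cells that had lost Sua7, in 4 of the 8 libraries of the series. These were the 2 newly synthesized and the 2 total RNA libraries of auxin-treated cells, joined gene by gene, and the 4 DMSO libraries served as the comparison. All cells were Saccharomyces cerevisiae strain GZY364, a MATalpha strain carrying OsTIR1, the auxin receptor F-box protein of rice, under the GPD1 promoter, and SUA7 fused at its own locus to 3 V5 epitopes and the IAA7 degron (SUA7-3V5-IAA7). All groups share the genotype, which also carries deletions in ADE2, HIS3, LEU2, LYS2, MET15, TRP1 and URA3. Cultures in mid-log phase in YPD received 500 µM auxin (3-indole acetic acid) or the carrier DMSO for 30 min, and both then received 5 mM 4-thiouracil for 6 min. No group without the degron received auxin, so an effect of auxin itself and of Sua7 loss cannot be told apart. Cells of Schizosaccharomyces pombe were added at 3 parts per part of S. cerevisiae before extraction, and labelled RNA was then purified from the total RNA extract.

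Sua7 is yeast TFIIB, the general factor that bridges TBP on the promoter and RNA polymerase II and so allows transcription of protein-coding genes and most snoRNAs to begin. RNA polymerases I and III use other TFIIB-like proteins, and the mitochondrial polymerase starts with an initiation factor of its own. 4-Thiouracil is taken up by cells and built into RNA as it is made, so the purified fraction is rich in young transcripts, while total RNA holds what has accumulated. Under steady conditions a high ratio of labelled to total RNA marks RNAs with fast turnover and a low ratio marks long-lived ones. Both fractions are relative measures here, and fewer cells and less RNA per cell cannot be told apart in such bulk libraries.

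The total RNA libraries of auxin-treated cells held 7010247 and 7181104 counts, and the newly synthesized ones 1291241 and 1753672. The DMSO libraries held 8275038 to 11779971 counts. Log2 CPM of replicates correlated across genes with r = 0.984 for new and 0.990 for total RNA in auxin. Of 6808 genes listed in either table, 6538 were in both, and 5618 passed the filter on low counts in the 4 auxin libraries. SUA7 itself (YPR086W, chromosome XVI, 710101 to 711138, sacCer3) had 272 and 327 counts in new and 225 and 246 in total RNA of auxin-treated cells. This does not measure depletion, since the degron acts on the protein. The alpha mating-type genes were read out in new RNA, with 468 and 645 counts for the pheromone gene MF(ALPHA)1, against 21 and 19 for the a-cell protease gene BAR1.

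The make-up of the labelled fraction differed from that of total RNA in nearly every RNA class. Nuclear protein-coding genes took 90.3% and 91.8% of the counts of the 2 newly synthesized libraries, against 72.9% and 76.5% of total RNA. Spliceosomal RNAs made by RNA polymerase II took 0.235% and 0.256% of new RNA, against 5.64% and 5.43% of total RNA. The snoRNAs, guides of rRNA modification and processing, took 0.350% and 0.357% of new against 5.02% and 4.62% of total RNA. Nuclear tRNAs went the other way, with 0.325% and 0.208% of new against 0.0430% and 0.0281% of total RNA. In each of these classes both new libraries lay on the same side of both total libraries.

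**Figure D1:**
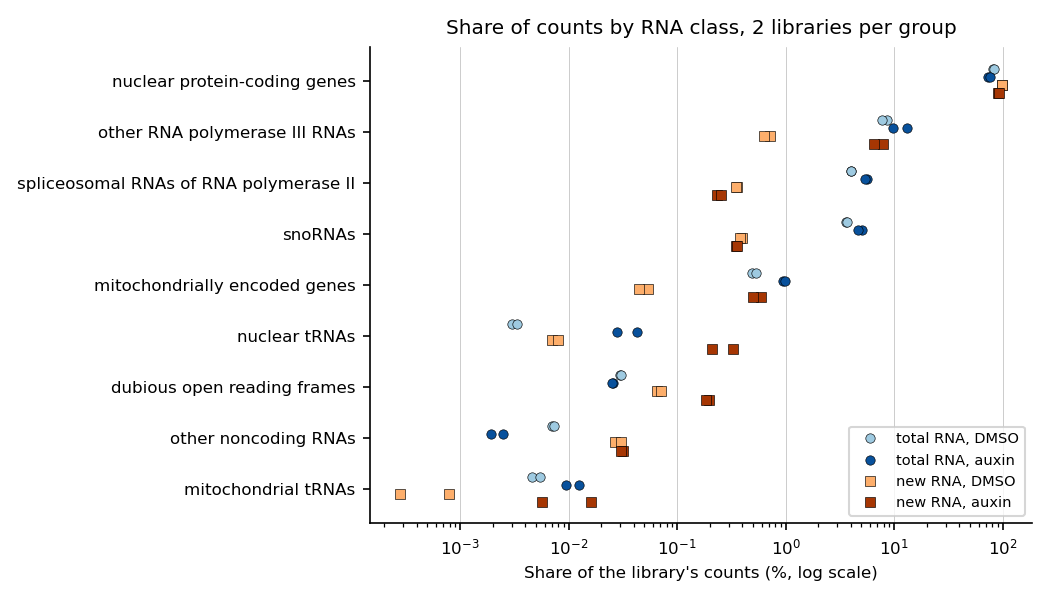
Share of each library's counts (%, log axis) taken by 9 RNA classes, over genes listed in both tables; circles are total RNA and squares newly synthesized RNA, light for DMSO and dark for auxin, with 2 libraries per group. With auxin, spliceosomal RNAs and snoRNAs lie over 10 times higher in total than in new RNA, while RNA polymerase III and mitochondrial classes lie to the right of their DMSO values in the auxin new RNA.

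Gene by gene, the ratio was tested with edgeR's quasi-likelihood test on raw counts after TMM scaling, which sets a log2 ratio of 0 near the typical gene. The TMM factors of new over total RNA differed by 2.66 and 2.54 on the log2 scale for replicates 1 and 2. A gene with the same share of counts in both fractions therefore had a log2 ratio of about -2.6 by this scale. By share alone, 4947 of the 5618 genes were higher in both new libraries than in either total library and 520 were lower. After scaling, 1912 genes (34%) were higher and 1924 (34.2%) lower in new than in total RNA at an adjusted p below 0.05. A stricter test against a 2-fold difference called 651 genes higher (11.6%) and 1194 lower (21.3%). The median log2 ratio was 0.10, with quartiles at -1.04 and 0.87, and the lower tail was the longer, with the 5th percentile at -3.83 and the 95th at 2.15. Upper-quartile factors moved the median to 0.58 and the split to 2774 higher and 1515 lower.

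The 3 lowest ratios belonged to structural RNAs. The H/ACA snoRNA snR30, needed for the cleavage that frees 18S rRNA, is encoded on chromosome XII, 198784 to 199389. It had 223 and 265 CPM (counts scaled to a common library size with TMM) in new RNA and 51162 and 46125 in total RNA. Its log2 ratio was -7.64 ± 0.11 (SE, n = 2 per group, adjusted p = 1.52e-21). The U1 spliceosomal RNA SNR19 had 179 and 186 CPM in new and 32848 and 26065 in total RNA, a log2 ratio of -7.33 ± 0.12. The U2 RNA LSR1 stood at 763 and 850 against 114733 and 106748, a log2 ratio of -7.10 ± 0.10. All 3 RNAs were over 100 times lower in new RNA in CPM in each replicate. The others named as lowest by the same rule were snR86, also an H/ACA snoRNA, at -6.98 ± 0.10 and the ribosomal protein genes RPL9A at -6.91 ± 0.11, RPL21A at -6.68 ± 0.12 and RPS23B at -6.67 ± 0.11, beside RPS1B described further on. The U4 RNA SNR14, only 160 bases long, was the exception, with 29 and 39 raw counts in new and 8 and 8 in total RNA and a log2 ratio of 1.66 ± 0.40.

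Of the 56 snoRNAs tested, 33 were lower and 7 higher, with a median log2 ratio of -1.69. The families differed in their counts: of 24 H/ACA snoRNAs, 21 were lower and none higher (median -2.76), and of 29 C/D snoRNAs, 9 were lower and 7 higher (median -0.46). A test between the families was not run. The other 3, placed in neither family by their descriptions, were the U3 RNAs SNR17A at -6.05 ± 0.21 and SNR17B at -5.84 ± 0.20 and NME1, the RNA of RNase MRP, at -4.64 ± 0.17. The ratio fell with length over the 56 snoRNAs (Spearman rho = -0.82, across genes that share libraries). Of C/D members, snR190, 190 bases long, was the lowest at -4.65 ± 0.14, whereas snR57, 88 bases, was at 1.41 ± 0.37 on 44 and 41 new and 15 and 9 total counts. RNAs of such lengths are short for a fragmented library with bead clean-up, and the part of that step in the relation with length was not tested.

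**Figure D2:**
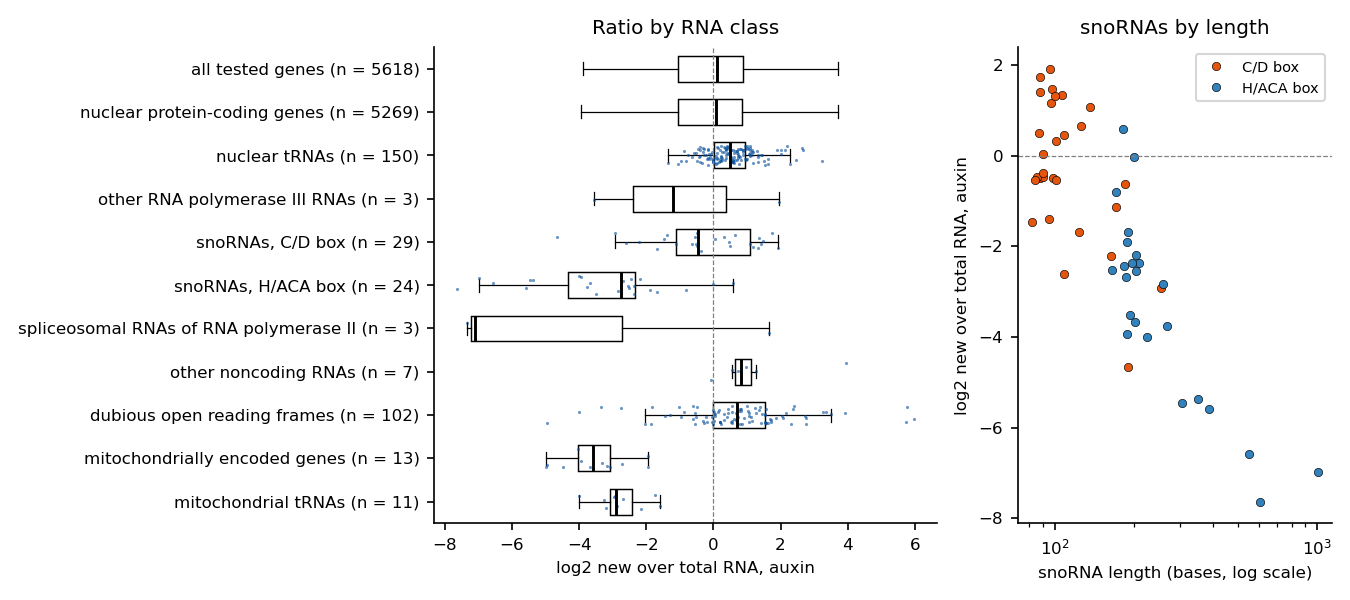
Left, log2 ratio of new over total RNA in the auxin libraries for each tested gene (points) by RNA class, with boxes at the median and quartiles, whiskers to 1.5 times the interquartile range, and no points drawn for the 2 largest groups. Right, the same ratio for 29 C/D and 24 H/ACA snoRNAs against length in bases (log axis); the longest lie close to -7 and most of the shortest lie between -2 and 2.

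RNAs of the polymerases that do not use Sua7 were found on both sides. Of the spacers of the rRNA precursor, made by RNA polymerase I, 2 passed the filter. ETS1-1, the spacer upstream of 18S rRNA, was higher with 67 and 24 counts in new against 5 and 3 in total RNA (log2 3.12 ± 0.64, and 1.98 without newly synthesized replicate 1), and ETS2-2, with 8 and 6 against 3 and 4, did not pass the test. Of 239 nuclear tRNA genes in both tables, 150 passed the filter, 18 of them higher and 4 lower in new RNA. Over all tested genes 34% were higher and 34.2% lower. The median log2 ratio of the tRNAs was 0.50, which without newly synthesized replicate 1 lay below the median of all genes. A gene could pass the filter on the 2 new libraries alone, and this median is not corrected for that. tG(GCC)P1, a glycine tRNA, had 260 and 206 counts in new and 133 and 101 in total RNA (log2 0.61 ± 0.21, adjusted p = 0.0149 by edgeR, not past 0.05 with DESeq2 or without newly synthesized replicate 1 or total replicate 2). tW(CCA)P, a tryptophan tRNA, had 288 and 285 in new and 339 and 234 in total RNA (log2 -0.40 ± 0.17, adjusted p = 0.0454 by edgeR). That call did not hold with DESeq2, with TMM on coding genes, or without newly synthesized replicate 2 or total replicate 1. tRNA copies of one type share mature sequence, so counts of single tRNA genes are uncertain.

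SCR1, which forms the core of the signal recognition particle, was the most abundant single RNA in both fractions. It had 25440 and 21587 CPM in new RNA and 324902 and 225933 in total RNA, and its log2 ratio was -3.55 ± 0.12. RPR1, the RNA of RNase P, was at -1.21 ± 0.13, with 6392 and 5129 against 15791 and 10868 CPM. By share of counts RPR1 was higher in new RNA, with 1.58% and 1.26% against 0.604% and 0.444% of total RNA. SCR1 was lower by share as well as by ratio, with 6.30% and 5.28% against 12.4% and 9.23%. The third member tested, snR52, a C/D snoRNA made by RNA polymerase III, was higher in new RNA at 1.94 ± 0.23.

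The mitochondrially encoded genes were all lower in new RNA on the TMM scale: 13 of 13 tested genes (median log2 -3.57) and 11 of 11 mitochondrial tRNAs (median -2.90). By share of counts the mitochondrial tRNAs overlapped, at 0.00565% and 0.0160% of new against 0.00953% and 0.0124% of total RNA. Relative to the median of all genes the mitochondrial tRNAs stood at -3.00, which became -2.08 without newly synthesized replicate 1 and -3.92 without replicate 2. COX2, subunit II of cytochrome c oxidase, had 774 and 530 CPM in new and 8522 and 8011 in total RNA (log2 -3.67 ± 0.13). The large rRNA 21S_RRNA, at -1.96 ± 0.20, lay near the upper end of the class. Another 11 mitochondrial genes were listed in the total RNA table only, with 165404 and 197010 counts in auxin, and are not part of these counts. Replicates of new RNA differed for several members: VAR1, the ribosomal protein encoded in the mitochondrion, had 25 and 81 counts.

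Among protein-coding genes the ratio differed between functional lists. The cytosolic ribosomal proteins had the lowest median of the functional lists: all 137 were lower, 132 of them beyond 2-fold, with a median log2 ratio of -5.12 against 0.09 for the 5269 nuclear coding genes. They took 3.51% and 3.37% of new RNA counts and 25.7% and 25.8% of total RNA counts. RPS1B, of the small subunit (chromosome XIII, 146482 to 147249), had 164 and 157 CPM in new and 19894 and 20744 in total RNA, a log2 ratio of -6.99 ± 0.10. RPL10 of the large subunit, with 690 and 644 against 21057 and 21054 CPM, was at -4.98 ± 0.09. Ranges were wide, and the duplicated copies of a protein often differed: of 59 A and B pairs, 32 differed by over 1 on the log2 scale and 18 by over 2. RPS9B was at -6.37 with 11426 and 10979 CPM in total RNA, and RPS9A at -0.57 with 98.1 and 117 CPM. RPL22A was at -4.93 and RPL22B at -0.53. Where copies are nearly identical, reads may have been divided between them in a way the sources used here do not give.

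Other lists of protein synthesis also had negative medians on the TMM scale, where 34% of all tested genes were higher and 34.2% lower. All 19 cytosolic aminoacyl-tRNA synthetases, which charge tRNAs, were lower (median log2 -3.29), from SES1 at -4.48 to TYS1 at -1.09. The wider annotation list for tRNA aminoacylation, not limited to cytosolic enzymes, had 17 of 30 lower and 7 higher (median -2.51). Of 30 translation factors, 27 were lower and 2 higher (median -2.54). The elongation factor genes YEF3 and TEF1 were at -4.44 ± 0.09 and -5.43 ± 0.10, while GCD1 and GCD2, subunits of the nucleotide exchange factor eIF2B, were the 2 higher at 0.64 and 0.34. These last genes were picked after their values were seen. Of 30 ribosome biogenesis genes, 14 were lower and 4 higher (median -0.12), with NOP56 of the C/D snoRNP at -2.37 ± 0.10. The wider annotation list for rRNA processing and ribosome biogenesis had 107 of 210 lower and 43 higher (median -0.45). Of 20 subunits of RNA polymerases I and III, 11 were lower and 4 higher (median -0.76), with the largest polymerase I subunit RPA190 at -2.33 ± 0.09. By share of counts these subunits were higher in new RNA, at 0.742% and 0.776% against 0.396% and 0.438% of total RNA. The 30 ribosome biogenesis genes were higher as well, at 1.05% and 1.02% against 0.300% and 0.341%. The synthetases, at 1.28% and 1.30% against 2.40% and 2.64%, and the translation factors were lower by share too.

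On the TMM scale, metabolic lists lay on the low side with exceptions. Of 13 glycolysis and fermentation genes, 11 were lower and 1 higher (median -3.37). The aldolase gene FBA1 had 662 and 688 CPM in new and 48816 and 47308 in total RNA (log2 -6.15 ± 0.09), and ADH1, the fermentative alcohol dehydrogenase, was at -5.43 ± 0.10. HXK1, a hexokinase, was the gene that was higher, at 0.66 ± 0.13. Of 17 ergosterol genes, 13 were lower and 2 higher (median -2.10), with ERG13 at -3.94 ± 0.10. Amino acid biosynthesis had 17 of 25 lower and 3 higher (median -1.95). ASN2, an asparagine synthetase, was at -4.20 ± 0.10. HOM3 and LYS20, at 2.98 ± 0.15 and 3.21 ± 0.28, stood at the other end of that list. Oxidative phosphorylation genes of the nucleus had 12 of 18 lower and 2 higher (median -1.40), and the sulfur and methionine genes 7 of 12 lower and 4 higher (median -0.55), whereas the wider annotation list for methionine synthesis had 10 of 24 lower and 9 higher (median -0.03). Of the 27 genes annotated to vacuolar acidification, 19 were lower and 2 higher (median -3.10). Hexose transporters split, with HXT1 at 1.24 ± 0.12 and HXT3 at -0.93 ± 0.10 and 3 higher and 1 lower of 9, and the wider annotation list had 7 higher and 2 lower of 15. Among all tested genes 34% were higher and 34.2% lower. The 3 of 9 hexose transporters and 9 of 24 methionine synthesis genes called higher lay near that share. By share of counts the oxidative phosphorylation and the sulfur and methionine genes were higher in new RNA. Glycolysis and fermentation and ergosterol genes were lower by share.

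**Figure D3:**
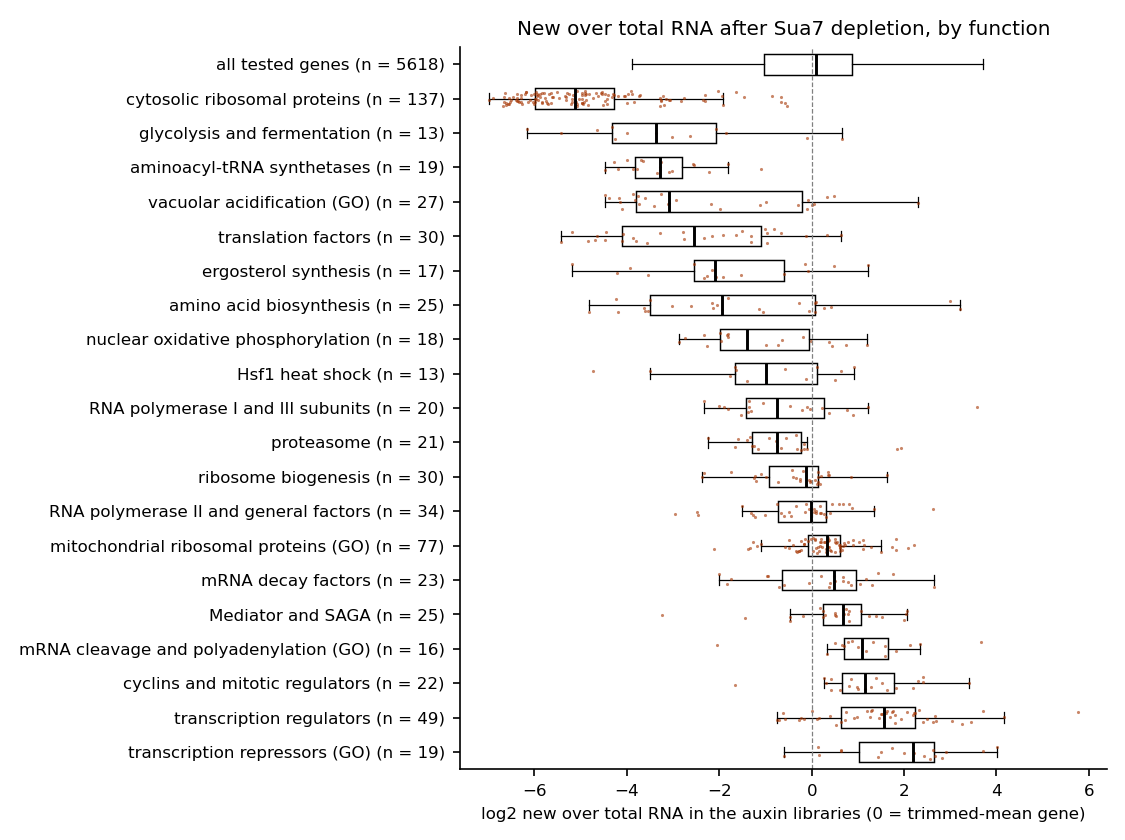
Log2 ratio of new over total RNA in the auxin libraries by functional list, with each tested member as a point, boxes at the median and quartiles and whiskers to 1.5 times the interquartile range; the dashed line is 0. Medians run from -5.12 for the 137 cytosolic ribosomal proteins to 2.19 for the 19 transcription repressors.

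Most lists of regulators of gene expression and of the cell cycle lay on the high side, beside 34% higher and 34.2% lower over all tested genes. The G1/S genes and the RNA polymerase II subunits and general factors, both given further on, did not. Of 49 transcription regulators, 37 were higher, 24 of them beyond 2-fold, and 3 were lower (median log2 1.56). RPN4, the activator of proteasome genes, had 436 and 404 CPM in new and 104 and 116 in total RNA, and both new libraries were above both total ones (log2 1.94 ± 0.11, adjusted p = 9.4e-13 by edgeR). ROX1, a repressor of hypoxic genes, was at 3.70 ± 0.43 on 85 and 72 new and 7 and 2 total counts. The 3 lower members, named after their values were seen, were RAP1 at -0.75, GCN4 at -0.72 and GCR1 at -0.57, of which RAP1 and GCR1 act at ribosomal protein or glycolytic genes and GCN4 at amino acid genes. REB1, a general regulatory factor, was at -0.22 ± 0.10 and did not pass the test. In the wider annotation list, 73 of 118 DNA-binding transcription factors were higher and 6 lower (median 1.138). In a smaller annotation list, 16 of 19 transcription repressors were higher and 1 lower (median 2.19).

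Of 22 cyclins and mitotic regulators, 18 were higher and 1 lower (median 1.15). CDC5, the polo kinase, was at 0.41 ± 0.12, and HSL1, a bud neck kinase, was the lower one at -1.65 ± 0.12. The anaphase-promoting complex had 9 of 14 higher and 1 lower (median 1.22), and protein kinases had 79 of 125 higher and 15 lower (median 0.77). Of 16 cleavage and polyadenylation genes, 13 were higher and 1 lower (median 1.09), the lower one being GLC7, a protein phosphatase with many other roles, at -2.04. Of 25 Mediator and SAGA genes, 15 were higher and 4 lower (median 0.67), from SRB2 at -3.24 ± 0.31 to GAL11 and SGF73, both at 2.05. mRNA decay factors had 14 of 23 higher and 6 lower (median 0.47), with the exonuclease XRN1 at -1.74 ± 0.09 and PAT1, a decapping activator, at 2.64 ± 0.16. RNA polymerase II subunits and general factors had 7 of 34 higher and 13 lower (median -0.01), with RPO21, the largest subunit, at -0.67 ± 0.09.

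The remaining lists were mixed, beside 34% higher and 34.2% lower over all tested genes. Hsf1 heat shock genes had 8 of 13 lower and 3 higher (median -0.996). The constitutive Hsp90 gene HSC82 was at -3.50 ± 0.08, with 2048 and 2074 against 23202 and 23397 CPM, whereas its inducible paralog HSP82 had 2963 and 2699 against 1983 and 1989 CPM (0.51 ± 0.09). Proteasome genes had 15 of 21 lower and 2 higher (median -0.75), and that list counts their activator RPN4 among the 2. The wider annotation list had 26 of 40 lower and 5 higher (median -0.75). Msn2 and Msn4 stress genes had 11 of 19 lower and 4 higher (median -0.40), and G1/S genes 14 of 31 lower and 8 higher (median -0.23). Of 5 histone genes, 3 were lower and 1 higher, with HTA2 at -2.19 ± 0.11. Of 12 drug and weak acid transport genes, 6 were higher and 1, PDR5, lower at -1.16 ± 0.11. The 3 alpha-cell genes gave 1 higher and 2 lower.

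The highest ratios rested on few total RNA counts. Such genes could pass the filter through the new libraries alone, where they are high, and their ratios are not corrected for that. PRM7, a pheromone-regulated membrane protein gene (chromosome IV, 381985 to 384081), had 138 and 115 counts in new and 3 and 2 in total RNA, a log2 ratio of 5.21 ± 0.43. YNL327W, a cell wall endoglucanase gene, had 244 and 344 against 7 and 12 (4.52 ± 0.23). YKL204W, whose protein binds the cap factor eIF4E, had 93 and 70 against 3 and 4 (4.12 ± 0.45). The others named by the same rule were PAC10 of the prefoldin chaperone at 4.07 ± 0.52, YKL185W of the Rpd3L deacetylase at 4.01 ± 0.45, RME2 at 3.95 ± 0.32 and ATG41 of autophagy at 3.93 ± 0.53. YMR310C, a putative methyltransferase gene, had 41 and 46 new counts against 3 and 0 in total RNA, so no fold is given. Differences between these genes were not tested. Without total replicate 1, YKL185W became 5.57 and RME2 4.59, and without total replicate 2, YKL185W became 3.25 and ATG41 4.83.

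RME2 is an antisense transcript of IME4 (chromosome VII, 141898 to 144120). It overlaps that gene, and whether counting used the strand is not given, so reads of both cannot be told apart. It had 101 and 151 counts in new and 8 and 4 in total RNA. The class of other noncoding RNAs, with RME2 among its 7 tested members, had 4 higher and none lower (median 0.81). The shares over all tested genes were 34% and 34.2%. Members with few total counts could pass the filter on the new libraries alone. ICR1, the long RNA upstream of FLO11, was at 0.81 ± 0.21, again overlapping PWR1. Of 403 dubious open reading frames in both tables, many of which overlap other genes, 102 passed the filter, which the new libraries alone could satisfy. Of these, 28 were higher and 10 lower (median 0.70), against 34% higher and 34.2% lower over all tested genes.

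Abundance in unperturbed cells went with the ratio. Over the 5269 nuclear coding genes, Spearman's rho between the log2 ratio in auxin and the deposited total RNA level per kilobase in DMSO was -0.67, and -0.64 without the ribosomal proteins. Over 4 groups of equal size, from the least to the most abundant, the median log2 ratio was 1.09, 0.44, -0.10 and -1.94. In the least abundant group 740 genes were higher and 66 lower, and in the most abundant 125 were higher and 1077 lower. Transcript length followed the ratio less closely (rho = 0.26), with medians of -0.69, 0.09, 0.37 and 0.36 from the shortest group to the longest. These correlations are across genes, which are not independent replicates. DMSO libraries supplied the level, so the counts in the denominator of the ratio were not used for both. Level and denominator are still total RNA levels of the same gene, so part of the negative relation is built in. Genes of low abundance could also pass the filter on the new libraries alone.

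Most of this order was present in DMSO too, and it widened with auxin. In a fit of all 8 libraries, the log2 ratios of 5502 nuclear coding genes with and without auxin correlated at r = 0.87 across genes. The interquartile range was 1.24 in DMSO and 1.93 in auxin. New RNA libraries held 1291241 and 1753672 counts in auxin against 9496247 and 11779971 in DMSO. The part of this depth in the wider range was not tested. The change of the ratio, tested as the interaction of fraction and treatment, was higher in auxin for 1643 genes (27.6%) and lower for 1379 (23.2%) of 5951 tested. This split depended on the scale. DESeq2 gave 793 higher and 1494 lower, median-of-ratios factors 1091 and 1647, and the deposited factors 2 and 4567. On the deposited factors the median gene fell by 1.63, against a rise of 0.20 on TMM. All changes that follow are relative to the other genes.

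**Figure D4:**
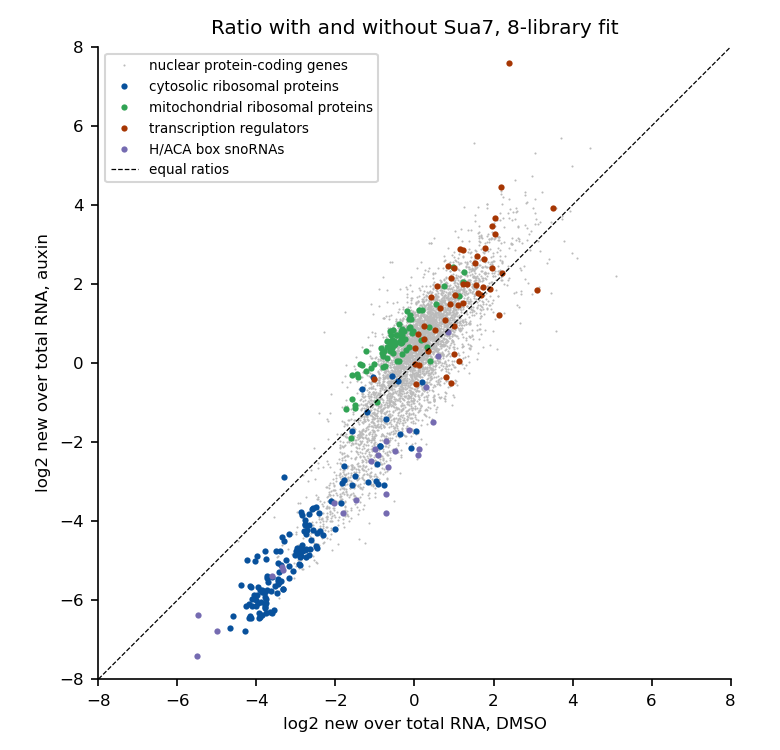
Log2 ratio of new over total RNA in auxin (vertical) against DMSO (horizontal), both from 1 fit of 8 libraries, for genes tested in both fits; the dashed line marks equal ratios. The ratio was lower in auxin for 130 of 137 cytosolic ribosomal proteins, below the line, and higher for 61 of 78 mitochondrial ones, above it.

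Several lists with low ratios in DMSO had lower ones in auxin. The cytosolic ribosomal proteins had a median log2 ratio of -3.25 in DMSO and -4.91 in auxin in that fit, and 130 of 137 had a lower ratio in auxin and 2 a higher one. Those 2, RPS9A at 0.69 and RPL15B at 0.67, were named after their values were seen. Glycolysis and fermentation fell in 11 of 13 and rose in 1 (median -1.21 in DMSO and -3.16 in auxin), and aminoacyl-tRNA synthetases fell in 19 of 19 (-1.51 and -3.08). Translation factors fell in 24 of 30 and rose in 1. Ergosterol genes fell in 11 of 17 and none rose. H/ACA snoRNAs fell in 21 of 26 and none rose, with medians of -0.72 and -2.41. C/D snoRNAs, with a DMSO median of 0.48 above that of all genes, fell in 10 of 35 and rose in 1, against 23.2% lower over all genes.

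The share of counts was also set side by side in each fraction. Cytosolic ribosomal proteins held 3.45% and 3.41% of new RNA without auxin and 3.51% and 3.37% with it. In total RNA they held 17.7% and 17.5% in DMSO and 25.7% and 25.8% in auxin. Transcription regulators held 0.668% and 0.702% of new RNA in DMSO and 0.682% and 0.656% in auxin, while their share of total RNA was 0.204% in both DMSO libraries and 0.0685% and 0.0710% in auxin. Mediator and SAGA genes stood at 0.368% and 0.384% against 0.357% and 0.384% of new RNA, and 0.137% and 0.142% against 0.0461% and 0.0506% of total RNA. Glycolysis and fermentation differed, with a new RNA share of 2.28% and 2.14% without auxin against 1.478% and 1.501% with it. Its share of total RNA was 5.29% and 5.41% in the auxin libraries against 4.64% and 4.57% in the DMSO ones. That list matched 13 of the 21 genes sought. The wider annotation list for glycolysis held 2.05% and 2.10% of new and 6.80% and 7.09% of total RNA in auxin. In DMSO it held 3.24% and 3.02% of new and 6.09% and 6.075% of total RNA. For the first 3 lists the groups overlapped in new RNA and did not in total RNA, and for glycolysis they overlapped in neither. These shares sum to the whole library and so do not measure amounts per cell.

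**Figure D5:**
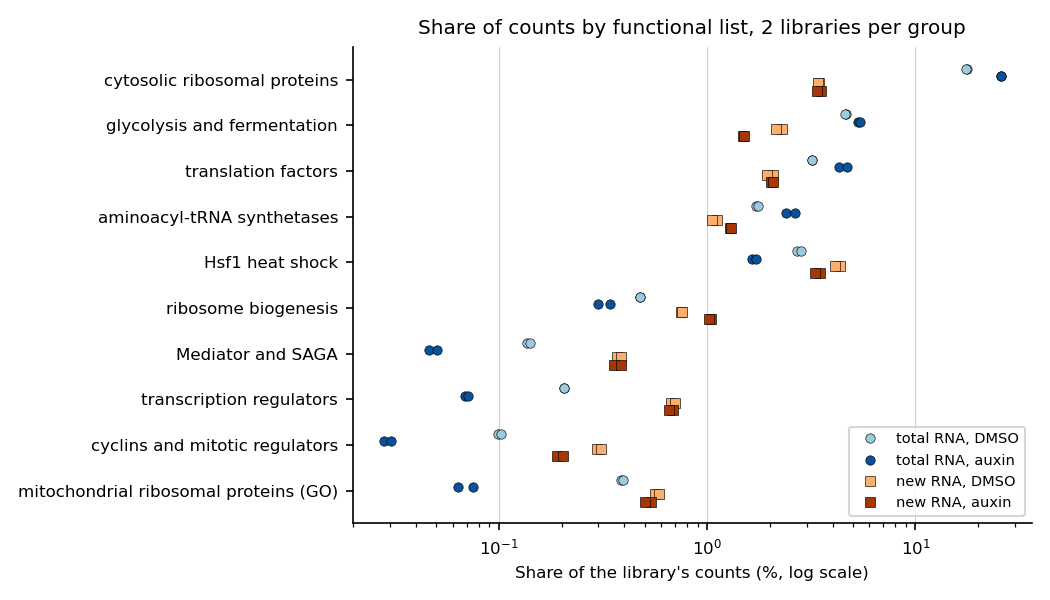
Share of each library's counts (%, log axis) taken by 10 functional lists; circles are total RNA, squares newly synthesized RNA, light for DMSO and dark for auxin, with 2 libraries per group. For cytosolic ribosomal proteins, Mediator and SAGA and transcription regulators the squares of DMSO and auxin overlap while the circles lie apart.

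Other lists gained relative to the typical gene on the TMM scale, where 27.6% of all tested genes were higher in auxin and 23.2% lower. Of 78 mitochondrial ribosomal proteins, encoded in the nucleus, 61 had a higher ratio in auxin and none a lower one, with medians of -0.48 in DMSO and 0.54 in auxin. Their total RNA share went from 0.386% and 0.396% to 0.0636% and 0.0748%, and their new RNA share from 0.561% and 0.585% to 0.539% and 0.501%. Transcription repressors had 11 of 19 higher and none lower, cleavage and polyadenylation genes 11 of 16 higher and 1 lower, Mediator and SAGA 13 of 25 higher and 3 lower, and transcription regulators 21 of 49 higher and 5 lower. Sporulation genes had 23 of 50 higher and none lower.

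Mitochondrial RNA and some RNA polymerase III products also gained on this scale. The mitochondrially encoded genes had a higher ratio in auxin in 12 of 14 cases and a lower one in none, and they made up 0.589% and 0.504% of new RNA with auxin against 0.0535% and 0.0442% without. COX2 rose by 1.25 ± 0.16. ATP8, of the ATP synthase, had 0 and 1 new RNA counts without auxin against 5 and 22 with it, too few for a fold. SCR1 rose by 1.49 ± 0.18 and RPR1 by 1.62 ± 0.18. The share of these and 3 further polymerase III RNAs in new RNA went from 0.719% and 0.626% to 7.90% and 6.56%. Nuclear tRNAs, whose share of both fractions was higher in auxin, gave 2 of 169 higher and none lower for the ratio, with a median change of 0.03. Against the median of all genes that is a difference of -0.17.

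The 6 genes named for a lower ratio in auxin were led by OLE1, the fatty acid desaturase, and ENO1, an enolase. OLE1 had 90.8 and 73.1 CPM in new RNA of DMSO-treated and 47.3 and 57.2 of auxin-treated cells, and 237 and 194 against 1244 and 1075 CPM in total RNA, in the 8-library scale. The change was -3.06 ± 0.17. ENO1 changed by -2.91 ± 0.13, IMD2, the GTP pathway enzyme, by -2.65 ± 0.19, and RPL21B, RPL28 and RPS6B by -2.72, -2.68 and -2.64. The 6 named for a higher ratio were YET2 at 2.23 ± 0.45, the kinase gene YOR267C at 2.20 ± 0.37, YLR255C at 2.07 ± 0.59, YOR250C of cleavage factor I at 2.07 ± 0.55, DIT2 at 2.06 ± 0.73 and YGR081C of pre-rRNA processing at 2.06 ± 0.42. YOR267C had 927 and 1196 new RNA counts without auxin and 91 and 137 with it, and 125 and 127 against 5 and 7 total RNA counts. The errors of these 6 overlap, and none of them passed the test on the deposited factors. YLR255C and DIT2 were not past the threshold without total DMSO replicate 2, nor DIT2 without newly synthesized DMSO replicate 2. SUA7 itself changed by 0.87 ± 0.13, which turned to -0.96 on the deposited factors.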

How the data were processed

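Raw counts, one table for newly synthesized and one for total RNA, were deposited by the authors, who list build sacCer3 and bcl2fastq 2.17.1.14 per the submitters' processing notes. Neither aligner nor counter nor strand setting is named there. Libraries were stranded, after rRNA depletion, from 800 ng of total or 300 ng of newly synthesized RNA, per the labels' protocols. In the normalized signal columns that were deposited, each library was scaled by its own factor, whose origin is unstated. It was used as an alternative scale, and the deposited signal per kilobase of median transcript length, a value in bases in the authors' tables, served for abundance. The authors' deposited log2 fold changes and p-values compare auxin with DMSO within each table and were not used.

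Genes were joined by identifier, and 2225 had a symbol in the tables, 571 were named from a description and 4012 keep their identifier. Lists by symbol hold only genes matched by name, such as 30 of 120 sought for ribosome biogenesis and 13 of 21 for glycolysis and fermentation. The auxin ratio came from the 4 auxin libraries and the change with DMSO from all 8, by edgeR 4.0.16 (filterByExpr at a minimum count of 10, TMM, glmQLFit and glmQLFTest, Benjamini-Hochberg below 0.05, and glmTreat for the 2-fold test). The SE is the log2 value divided by the square root of its F statistic. CPM use TMM library sizes. The scripts were tested on simulated data in which few genes changed, equally in both directions. Most genes were called in the data at hand, so that test does not bear on the scale or the calls. DESeq2 1.42.0, other factors, filters and joins, a replicate block and leaving out each library were the alternatives. With 2 libraries per group an exact permutation test cannot go below p = 0.333. Labels number the libraries 1 and 2 as biological replicates. Pairing of new and total libraries by number comes from the protocol, in which labelled RNA is purified from the total extract. Deviations of same-numbered libraries correlated at 0.055 in auxin and 0.035 in DMSO over 5038 genes.

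Genes named were, for the ratio, the 8 highest and 8 lowest past the threshold whose sign agreed in every library pair, with a mean count of at least 20, for the change the 6 highest and 6 lowest, and for each list or class the 2 most abundant members, and other genes were added after their values were seen. The members and lists were chosen with earlier results of these data known, and the lists by annotation (DNA-binding factors, repressors, kinases, mitochondrial ribosomal proteins, vacuolar acidification, sporulation, cleavage and polyadenylation, anaphase-promoting complex) after the files were seen. No gene sequences are shown. Precision is limited by the depth of the new RNA libraries and by 2 replicates.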

Additional observations from a re-analysis of the deposited data

Results flagged for a closer look

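The ratio of new to total RNA differed between auxin and DMSO in the test of the interaction itself, higher in auxin for 1643 genes and lower for 1379. Which direction prevails depends on the scale, as given with the processing.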

How the results depend on the processing

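In auxin, the genes higher numbered 1330 to 2774 and the genes lower 1477 to 1987 over the other scales, filters, joins and tools, against 1912 and 1924. Leaving out 1 library gave 1688 to 1782 higher and 1772 to 1832 lower. Testing against a 2-fold difference gave 651 and 1194. For the change between auxin and DMSO, the 1643 higher became 793 with DESeq2, 1091 with median-of-ratios factors, 2 with the deposited factors and 65 against a 2-fold difference. The 1379 lower became 4567 with the deposited factors and 542 against a 2-fold difference, and leaving out 1 library gave 1379 to 1561 higher and 1280 to 1362 lower. With the replicate block, which pairs new and total RNA of the same number, there were 1870 higher and 1915 lower in auxin and 1723 and 1426 for the change, within 1.5 times the unblocked counts. The cause of the shifts between scales was not tested. Single results also turned. For the auxin ratio, tW(CCA)P became 0.068 with upper-quartile factors, SDC25 (0.04 in the main test) became -0.012 with median-of-ratios factors and -0.129 to 0.243 without 1 library, REB1 became 0.25 with upper-quartile factors and 0.083 at a mean count of 50, and SUA7 became 0.41 with upper-quartile factors, 0.15 in the 8-library fit, 0.25 at a mean count of 50 and -0.105 to 0.059 without 1 library. SUA7 became -0.96 for the change with the deposited factors. Relative to the median of all genes, nuclear tRNAs lay at -0.042 to 0.69 without 1 library and GPI-anchored proteins -0.33 at a mean count of 50. For the change, other noncoding RNAs became -0.020 with DESeq2 and -0.011 without a filter, RNA polymerase I and III subunits -0.33 to 0.022 without 1 library, and hexose transporters -0.0046 at a mean count of 50. New RNA in auxin had the fewest counts in all, but errors were wide for genes with few counts in either fraction. ETS2-2, with 8 and 6 new and 3 and 4 total counts, had an SE of 0.73. ETS1-1, with 67 and 24 new and 5 and 3 total counts, had an SE of 0.64.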
